A study of Mus musculus with 12 samples.

Results

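Transcripts of 10 Notch pathway genes were followed in cultured skin-derived precursors (SKPs), which are cells of the dermis that form free-floating spheres in culture. The genes were 3 receptors (Notch1, Notch2 and Notch3), 2 ligands (Jag1 and Dll1) and 5 targets (Hes1, Hey1, Hey2, Heyl and Nrarp). They were taken by symbol from the array annotation, with the brightest probe set where a symbol had more than 1, and all 10 were found among 22180 genes. The spheres came from CD57/Bl6 mice (the strain as the labels spell it) aged 9 months, and there were 3 arrays in each of 4 groups: wound trimebutine (wounded skin given trimebutine maleate, a gut motility drug), wound alprostadil (wounded skin given prostaglandin E1), wound vehicle and uninjured vehicle. All groups were seeded at 50000 cells/ml in medium holding 2% B27, 20 ng/ml of EGF and 40 ng/ml of FGF2, and secondary spheres were grown before RNA was taken. RNA was therefore read in culture, and the sources used here give no dose, wound age, skin site or number of mice per isolate. The labels call the 3 samples of a group biological replicates and the series text calls them independent isolates.

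Notch signalling passes between touching cells. A ligand such as Jag1 or Dll1 on one cell binds a Notch receptor on its neighbour, ADAM proteases and gamma-secretase cut the receptor, and the freed intracellular part joins the DNA-binding protein RBPJ and a Mastermind coactivator to switch on genes of the Hes and Hey families and Nrarp. In skin the pathway is best known for keratinocyte differentiation, and dermal fibroblasts and the mural cells of vessels also carry receptors, Notch3 being typical of mural cells. A transcript level gives the amount of receptor or ligand mRNA and does not measure cleavage of the receptor.

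Promoter sequences are shown for Notch2 and Dll1, whose group differences had the smallest p, and for Hey2, the member whose promoter carried the RBPJ motif. They are RefSeq sequences on GRCm38.p6, read 5′ to 3′ on the strand of the gene, from 250 bases before to 50 bases after the start of the transcript. Dll1 has 2 starts in that table, and 2 probe sets on the array. Capitals mark the RBPJ core TGGGAA or its reverse complement TTCCCA.
Notch2, chr3:98013288-98013587, plus strand: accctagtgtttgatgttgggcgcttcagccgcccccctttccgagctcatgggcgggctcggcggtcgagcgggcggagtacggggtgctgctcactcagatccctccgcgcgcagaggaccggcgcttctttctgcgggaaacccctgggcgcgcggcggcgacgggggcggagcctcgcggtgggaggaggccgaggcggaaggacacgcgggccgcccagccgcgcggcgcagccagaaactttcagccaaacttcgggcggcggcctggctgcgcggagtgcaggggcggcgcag
Dll1 start 1, chr17:15375774-15376073, minus strand: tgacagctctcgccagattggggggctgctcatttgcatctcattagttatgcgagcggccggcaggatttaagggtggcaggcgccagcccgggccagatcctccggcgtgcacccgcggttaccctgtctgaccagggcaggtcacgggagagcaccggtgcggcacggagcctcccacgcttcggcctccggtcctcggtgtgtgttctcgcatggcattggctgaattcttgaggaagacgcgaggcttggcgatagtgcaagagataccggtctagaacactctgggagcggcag
Dll1 start 2, chr17:15376883-15377182, minus strand: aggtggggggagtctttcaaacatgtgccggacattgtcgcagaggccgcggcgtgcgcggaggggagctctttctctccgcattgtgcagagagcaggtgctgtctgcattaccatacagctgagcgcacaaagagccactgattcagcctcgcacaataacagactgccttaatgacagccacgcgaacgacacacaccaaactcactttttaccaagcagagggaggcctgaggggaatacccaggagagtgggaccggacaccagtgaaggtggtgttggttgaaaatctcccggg
Hey2, chr10:30842734-30843033, minus strand: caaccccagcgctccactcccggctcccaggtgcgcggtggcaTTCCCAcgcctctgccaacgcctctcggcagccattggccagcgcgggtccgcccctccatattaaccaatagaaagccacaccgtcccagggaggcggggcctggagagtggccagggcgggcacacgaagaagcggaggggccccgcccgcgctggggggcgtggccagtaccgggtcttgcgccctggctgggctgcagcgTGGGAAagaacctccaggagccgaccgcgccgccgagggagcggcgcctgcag
The table held promoters of 7 of the 10 genes, and Hes1, Hey1 and Heyl are named only. Of the 7, only Hey2 held the core, with 2 matches, starting 207 bases before the transcript start on the opposite strand and 3 bases before it on the strand of the gene. Both matches were part of the longer GTGGGAA. The core was found on either strand in 25.6% of 32851 promoters of this length, and GTGGGAA, which contains it, in 6.4%. The letters CACGTG, an E-box that Hey proteins can bind, occurred once among the 7 genes, 108 bases before the start of Nrarp, and in 7.2% of all promoters. A match describes the letters in this window, and binding was not measured.

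Dermal fibroblast markers were above the array median on every array (8 of 8), with Fn1 at 13.81 to 13.94 log2 units. Of 6 precursor markers, Snai2 (11.89 to 12.38), Twist1 and Vcan were above the median on all 12 arrays, Ngfr and Nes (nestin, at most 7.12) on 11, and Sox2 on 0. Of 12 endothelial markers, Pecam1, Tie1, Emcn, Cldn5, Esam and Erg were below the median on all 12 arrays, whereas Tek and Egfl7 were above it on 12 and Cdh5 on 11, reaching 9.98. Kdr and Sox18 were above it on 1 array each and Vwf on 4. Of 11 mural and smooth muscle markers, Kcnj8 and Cnn1 were below it on all 12, whereas Pdgfrb (11.80 to 12.87), Acta2, Cspg4 and Myh11 were above it on 12. The others were mostly below it, with Tagln above it on 1 array, Rgs5 and Des on 2, Abcc9 on 3 and Mcam on 5. Macrophage markers stood out on wound alprostadil replicate 1, where all 12 were above the array median and their mean, centred per gene, was 3.80, against -0.70 to 0.34 on the other arrays, so differences that rest on it are also given without that array. Fibroblast markers split the wound arrays, with centred means of -0.50 and -0.38 on wound alprostadil replicates 1 and 2 and -0.27 and -0.46 on wound vehicle replicates 1 and 2, against 0.10 to 0.34 on the other arrays. In bulk samples fewer cells of a type and less RNA per cell cannot be told apart.

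Testing was limited to genes brighter than the array median on 3 or more of the 12 arrays, which kept 13153 genes. Of the 10 members 8 were tested, 7 of them above the median on all 12 arrays and Heyl on 11. Hey2 and Nrarp were below the array median on every array and were not tested. Values are log2 expression as deposited, given for replicates 1, 2 and 3 in that order, with SD over 3 arrays. Differences are from limma over all 4 groups with the model's standard error (SE), and two-sided p-values were adjusted over the 13153 genes. Between genes the levels are not compared, because probe sets differ in brightness.

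**Figure D1:**
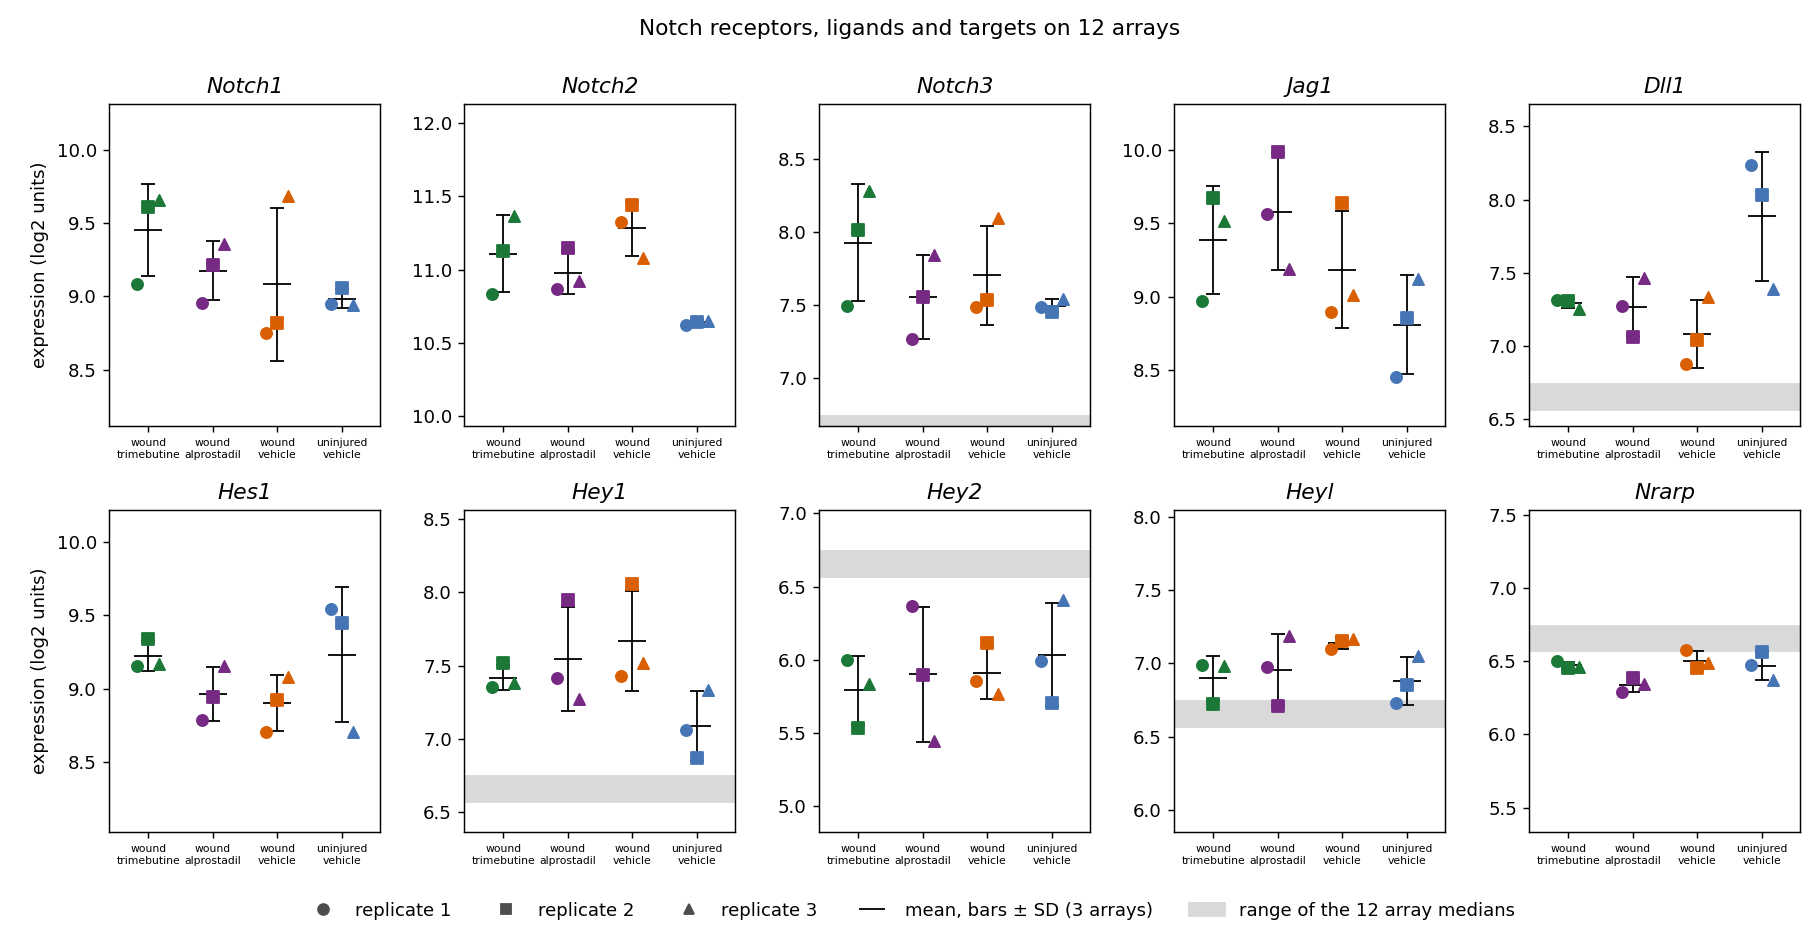
Level of each of the 10 genes (log2 units, vertical axis) on the 12 arrays by group; symbols are replicates, horizontal marks with bars are mean ± SD of 3 arrays, and the grey band is the range of array medians (6.57 to 6.74). Every panel spans the same number of log2 units. Notch2 was lower on all uninjured vehicle arrays than on any wound array, Dll1 was highest on uninjured vehicle replicates 1 and 2, and Hey2 and Nrarp lay below their array medians.

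Among the receptors, Notch2 separated the wound groups from the uninjured group most sharply. It read 10.84, 11.13 and 11.36 in wound trimebutine, 10.87, 11.15 and 10.92 in wound alprostadil, 11.32, 11.44 and 11.08 in wound vehicle, and 10.62, 10.64 and 10.65 in uninjured vehicle. All 9 wound arrays lay above all 3 uninjured arrays. The group means ran from wound vehicle (11.28 ± 0.19) through wound trimebutine (11.11 ± 0.26) and wound alprostadil (10.98 ± 0.15) to uninjured vehicle (10.64 ± 0.01), and the 3 wound groups overlapped. Wound vehicle exceeded uninjured vehicle by 0.64 ± 0.14 (SE; 95% interval 0.33 to 0.95), a ratio of 1.56, with a limma unadjusted p of 0.000968 and an adjusted p of 0.149, which does not pass 0.05. The adjusted p ranged from 0.0767 to 0.505 when 1 array at a time was left out, and the difference from 0.56 to 0.74.

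Notch1, the founding mammalian receptor, and Notch3 shared an array pattern that followed single cultures more than groups. Notch1 read 9.09, 9.61 and 9.66 in wound trimebutine, 8.96, 9.21 and 9.36 in wound alprostadil, 8.75, 8.81 and 9.68 in wound vehicle, and 8.95, 9.06 and 8.94 in uninjured vehicle. Notch3 read 7.49, 8.01 and 8.28 in wound trimebutine, 7.27, 7.55 and 7.84 in wound alprostadil, 7.49, 7.53 and 8.09 in wound vehicle, and 7.48, 7.45 and 7.54 in uninjured vehicle. The 4 arrays highest in Notch1 were the 4 highest in Notch3: wound vehicle replicate 3, wound trimebutine replicates 2 and 3, and wound alprostadil replicate 3. Those 4 arrays were also the 4 highest in the centred mean of the 11 mural and smooth muscle markers, at 0.16 to 0.22, against -0.30 to 0.11 on the other 8 arrays. Their fibroblast marker means were 0.16 to 0.22, against -0.50 to 0.15 on the other wound arrays and 0.10 to 0.34 on the uninjured arrays. The part of either marker list in the receptor levels was not tested. Wound vehicle spanned the widest range in Notch1 of the 4 groups, and its mean (9.08 ± 0.52) lies where none of its arrays does. Notch1 differed by 0.10 ± 0.24 (adjusted p = 0.881) and Notch3 by 0.21 ± 0.22 (adjusted p = 0.702) between wound vehicle and uninjured vehicle. Without wound vehicle replicate 3 the Notch1 difference was -0.20, so its sign rests on that array, and the Notch3 difference was 0.0161. In order of means both receptors ran wound trimebutine, then the other wound groups, then uninjured vehicle (8.98 ± 0.07 for Notch1 and 7.49 ± 0.05 for Notch3), and no neighbours in either order were separated by more than their spread.

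**Figure D2:**
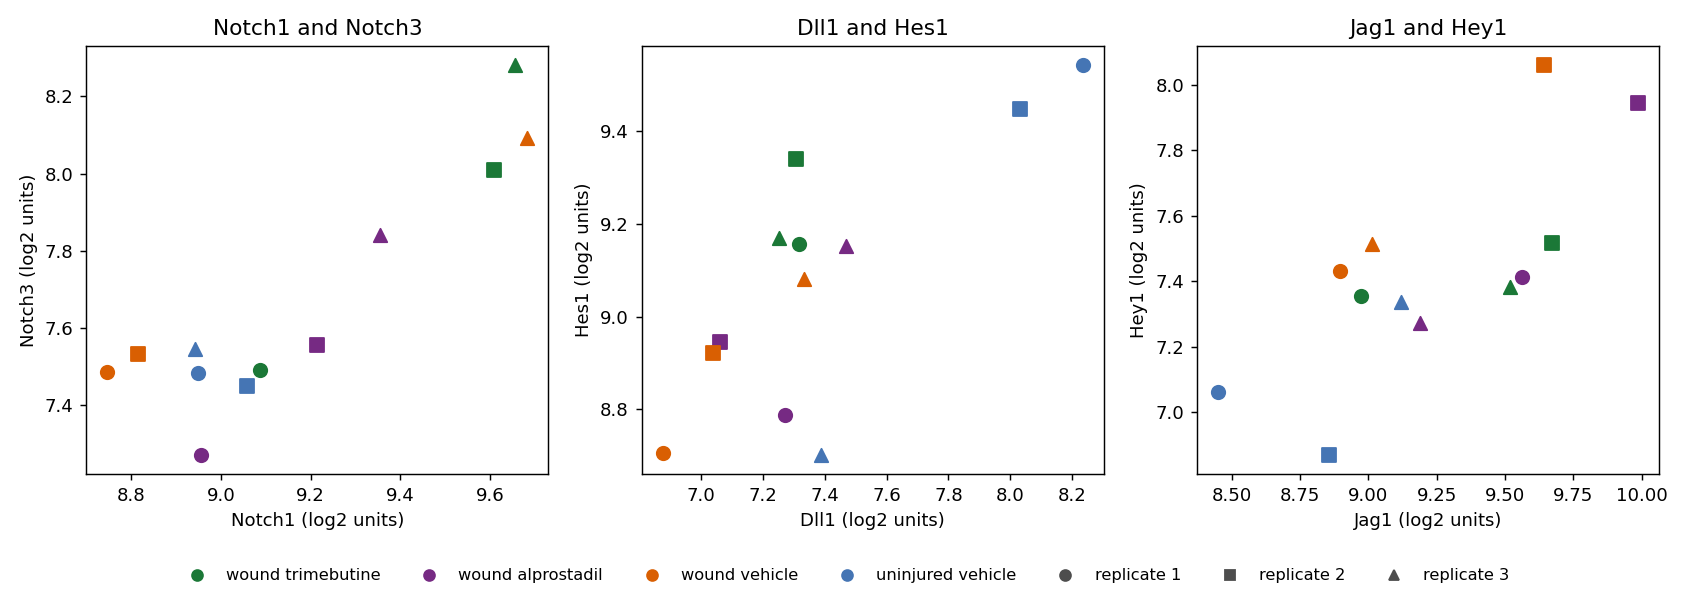
Levels of 3 pairs of members (log2 units on both axes) on the 12 arrays; colours are groups and symbols are replicates. The 4 highest arrays are shared by Notch1 and Notch3, the 2 highest by Dll1 and Hes1, and the 3 highest by Jag1 and Hey1.

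The 2 ligands lay on opposite sides. Dll1, a Delta-like ligand, read 7.32, 7.31 and 7.25 in wound trimebutine, 7.27, 7.06 and 7.47 in wound alprostadil, 6.88, 7.04 and 7.33 in wound vehicle, and 8.23, 8.03 and 7.39 in uninjured vehicle. Uninjured vehicle replicates 1 and 2 were the highest of the 12 arrays, while replicate 3 lay below wound alprostadil replicate 3. Wound vehicle was lower than uninjured vehicle by 0.80 log2 units in the model (-0.80 ± 0.20, 95% interval -1.25 to -0.35, adjusted p = 0.195), and the groups did not overlap. The outcome depends on uninjured vehicle replicate 3: without it the difference was -1.05 and passed (adjusted p = 0.0343), and over all single omissions it ranged from -1.05 to -0.63, with adjusted p up to 0.601. The second Dll1 probe set was above the array median on 2 of 12 arrays and also averaged lower in wound vehicle, at 6.29 ± 0.13 against 6.75 ± 0.47 in uninjured vehicle. The means of the 3 wound groups, 7.29 ± 0.03 for trimebutine, 7.27 ± 0.20 for alprostadil and 7.08 ± 0.23 for vehicle, overlapped, and each was below that of uninjured vehicle (7.88 ± 0.44).

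Jag1, a Jagged ligand, read 8.97, 9.67 and 9.52 in wound trimebutine, 9.56, 9.99 and 9.19 in wound alprostadil, 8.90, 9.64 and 9.01 in wound vehicle, and 8.45, 8.85 and 9.12 in uninjured vehicle. Its group means ran from wound alprostadil (9.58 ± 0.40) through wound trimebutine (9.39 ± 0.37) and wound vehicle (9.18 ± 0.40) to uninjured vehicle (8.81 ± 0.34), each neighbour within the spread of the next. Wound vehicle minus uninjured vehicle was 0.38 ± 0.28 (adjusted p = 0.582). All wound groups together minus uninjured vehicle was 0.58 ± 0.23 (95% interval 0.07 to 1.08, adjusted p = 0.404). Over the 12 arrays Jag1 spanned 1.54 log2 units, the widest range of the 10 genes, where the median gene tested spanned 0.58.

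The tested targets did not share a direction. Hes1, a repressor of the Hes family, read 9.16, 9.34 and 9.17 in wound trimebutine, 8.79, 8.95 and 9.15 in wound alprostadil, 8.71, 8.92 and 9.08 in wound vehicle, and 9.54, 9.45 and 8.70 in uninjured vehicle. Its highest 2 arrays were uninjured vehicle replicates 1 and 2, as for Dll1, and its lowest was replicate 3 of the same group. Wound vehicle minus uninjured vehicle was -0.33 ± 0.20 (adjusted p = 0.516). Within the wounds, every trimebutine array lay above every alprostadil and vehicle array. The margin to alprostadil was narrow, the nearest values being 9.156 (trimebutine replicate 1) and 9.153 (alprostadil replicate 3). The limma differences were 0.26 ± 0.20 against alprostadil (adjusted p = 0.756) and 0.32 ± 0.20 against vehicle (adjusted p = 0.588). Without wound alprostadil replicate 1 the difference from alprostadil was 0.17.

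Hey1, a repressor of the Hey family, read 7.36, 7.52 and 7.38 in wound trimebutine, 7.41, 7.94 and 7.27 in wound alprostadil, 7.43, 8.06 and 7.51 in wound vehicle, and 7.06, 6.87 and 7.34 in uninjured vehicle. Each wound vehicle array lay above each uninjured one, and the difference was 0.58 ± 0.21 (95% interval 0.12 to 1.04, adjusted p = 0.302). Its means ran from wound vehicle (7.67 ± 0.34) through wound alprostadil (7.54 ± 0.35) and wound trimebutine (7.42 ± 0.09) to uninjured vehicle (7.09 ± 0.23). Heyl read 6.99, 6.72 and 6.98 in wound trimebutine, 6.97, 6.71 and 7.19 in wound alprostadil, 7.10, 7.15 and 7.16 in wound vehicle, and 6.73, 6.85 and 7.05 in uninjured vehicle. Wound vehicle lay above uninjured vehicle without overlap, by 0.26 ± 0.13 (adjusted p = 0.435), and above wound trimebutine without overlap, with a trimebutine difference of -0.24 ± 0.13 (adjusted p = 0.555).

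Hey2, whose promoter is shown above, and Nrarp, a feedback inhibitor that the pathway switches on, were below the array median throughout. Hey2 averaged 5.79 ± 0.24 in wound trimebutine, 5.90 ± 0.46 in wound alprostadil, 5.91 ± 0.18 in wound vehicle and 6.03 ± 0.35 in uninjured vehicle, with overlap of all groups. Nrarp averaged 6.47 ± 0.03 in wound trimebutine, 6.34 ± 0.05 in wound alprostadil, 6.50 ± 0.07 in wound vehicle and 6.47 ± 0.10 in uninjured vehicle and spanned 0.29 log2 units in all, the narrowest range of the 10 genes. Its 3 wound alprostadil arrays (6.29, 6.39 and 6.34) lay below all other wound arrays, which read 6.45 or more. The value of 6.29 was on replicate 1, the array with macrophage markers. Of all genes tested, 5.9% did not overlap between alprostadil and wound vehicle and 11.2% between the drugs. Nrarp was not among the genes tested.

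**Figure D3:**
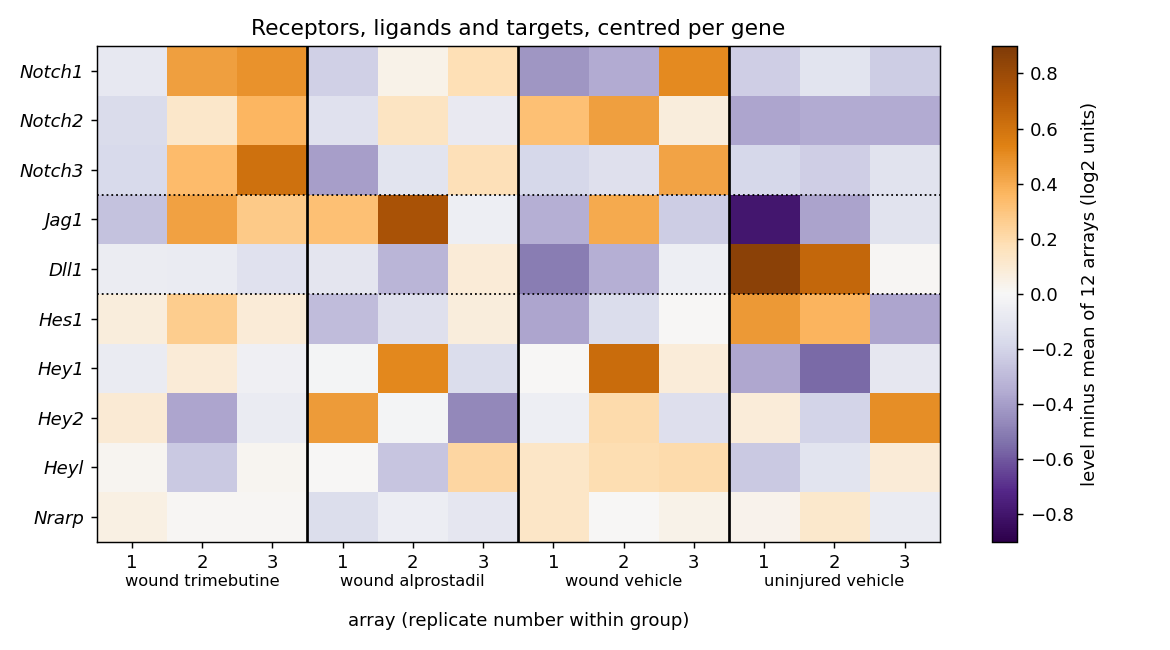
Level of each gene minus its mean over the 12 arrays (log2 units, colour) for receptors (top block), ligands (middle) and targets (bottom); columns are arrays by group. Notch2 was low across uninjured vehicle, and Dll1 and Hes1 were high on uninjured vehicle replicates 1 and 2 but not on replicate 3.

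How spheres from wounded skin differ without a drug was read from wound vehicle against uninjured vehicle. No member passed (0 of 8 in limma), against 0.0456% of all genes tested. At an unadjusted p under 0.05 there were 3 of 8, Notch2 and Hey1 higher and Dll1 lower, against 13% of all genes. Groups did not overlap for 4 of 8 (Notch2, Hey1 and Heyl higher, Dll1 lower), against 18% of all genes. These shares are over few genes, chosen with earlier results known, and show nothing particular to the pathway. The median difference was 0.24 over the 8 members and 0.01 over all genes. The unadjusted count was 2 without uninjured vehicle replicate 2 (7.28% of all genes) and 2 without wound vehicle replicate 2 (7.37%). It was 5 without uninjured vehicle replicate 3 (18.9%). The count stayed at 3 without uninjured vehicle replicate 1 (7.33%) and without wound vehicle replicate 1 (8.17%) or 3 (20.6%), though the share of all genes moved. It was 4 with the replicate block (14.4%), with only the groups compared (12.8%) and without wound alprostadil replicate 2 (13.2%). Array weights gave 5 (48.6%), and leaving out the 3 arrays of lowest median gave 2 (9.08%).

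With the 3 wound groups pooled against uninjured vehicle, 0 of 8 passed, against 0.243% of all genes, and 4 of 8 had an unadjusted p under 0.05, against 10.3%. Besides Notch2 (0.48 ± 0.11, adjusted p = 0.162) these were Dll1 (-0.67 ± 0.17, adjusted p = 0.179), Hey1 (0.45 ± 0.17, adjusted p = 0.368) and Jag1. Notch2 alone kept all 9 wound arrays apart from the 3 uninjured ones, which held for 2.56% of all genes. Without wound alprostadil replicate 1, the array with macrophage markers, the differences were 0.50 for Notch2, -0.67 for Dll1, 0.48 for Hey1 and 0.58 for Jag1. Without uninjured vehicle replicate 1, or without replicate 2, the unadjusted count was 2 each time, against 5.53% and 5.89% of all genes. It was also 2 without the 3 arrays of lowest median (8.46%), 5 without uninjured vehicle replicate 3 (14.6%) and 6 with array weights (44.2%). Dll1 passed without uninjured vehicle replicate 3 (-0.92, limma adjusted p = 0.028). Both comparisons share the uninjured arrays and are not independent of each other.

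The effect of trimebutine in wounds was read against wound vehicle. No member passed (0 of 8 in limma, and 0 of 8 at an unadjusted p under 0.05, against 0% and 9.43% of all genes). The unadjusted count was 1 without uninjured vehicle replicate 3 (10.2% of all genes) and without wound vehicle replicate 3 (21.3%). It was 1 with only the groups compared (10.8%) and 6 with array weights (43.8%). Groups did not overlap for 2 of 8, Hes1 higher and Heyl lower, against 15.8% of all genes. The receptor values were 0.37 ± 0.24 for Notch1, -0.17 ± 0.14 for Notch2 and 0.22 ± 0.22 for Notch3, the first with a 95% interval of -0.16 to 0.90. Leaving out wound vehicle replicate 3 gave 0.67 for Notch1 (adjusted p = 0.102), and leaving out wound vehicle replicate 1 gave 0.20.

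Alprostadil, which is prostaglandin E1, was also set against wound vehicle. In limma 0 of 8 members passed and 0 of 8 had an unadjusted p under 0.05, against 0% and 2.75% of all genes, and groups overlapped for 8 of 8, where 5.9% of all genes did not overlap. The unadjusted count was 1 with cyclic loess (1.93% of all genes). Without wound alprostadil replicate 2 or 3 it was 1 (6.68% and 4.87%), as without wound trimebutine replicate 1 or 3 (2.84% and 2.5%). With array weights (3.76%) and without wound vehicle replicate 3 (5.43%) it was 2. The largest values were 0.40 ± 0.28 for Jag1 (95% interval -0.22 to 1.01) and -0.30 ± 0.14 for Notch2 (-0.61 to 0.01), each with an adjusted p of 0.998. Without wound alprostadil replicate 1 they were 0.40 for Jag1 and -0.25 for Notch2. Jag1 moved more with other arrays, to 0.19 without wound alprostadil replicate 2 and 0.63 without wound vehicle replicate 2.

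Set against each other, trimebutine and alprostadil, which are unrelated in structure and whose doses are unknown here, differed in 0 of 8 members, with 0 of 8 at an unadjusted p under 0.05, against 0% and 4.42% of all genes. Groups did not overlap for 1 of 8 (Hes1, higher with trimebutine by the narrow margin given above), against 11.2% of all genes. The widest difference was in Notch3, higher by 0.37 ± 0.22 with trimebutine (95% interval -0.12 to 0.87, adjusted p = 0.752), and 0.23 without wound alprostadil replicate 1. With the replicate number as a block the unadjusted count was 1 of 8 (Notch3, with a limma adjusted p of 0.687), against 6.06% of all genes. That count was also 1 without wound trimebutine replicate 1 (6.44%), and 2 with array weights (20.6%). These intervals do not show that the drugs act alike on the pathway.

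**Figure D4:**
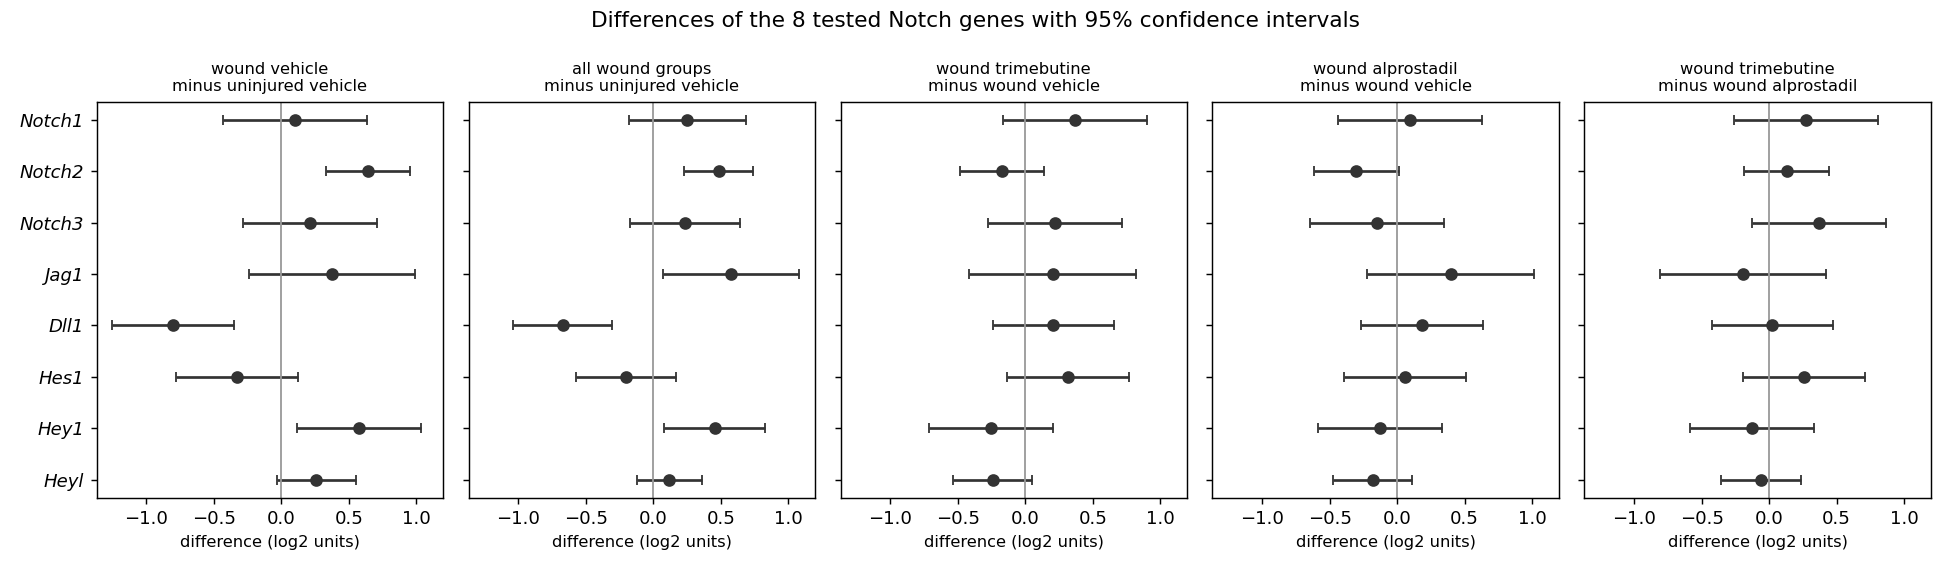
Differences of the 8 tested genes in 5 comparisons (log2 units, horizontal axis); points are limma estimates and bars are 95% confidence intervals, not adjusted for the number of genes. Against uninjured vehicle the intervals of Notch2, Dll1 and Hey1 leave out 0 for wound vehicle, and those of Jag1 too for all wound groups, and every interval between wound groups spans 0.

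The rest of the pathway was read from a list of 59 further genes, of which 55 were on the array and 46 were tested. Of these 46, 0 passed in any of the 5 comparisons. At an unadjusted p under 0.05 there were 3 of 46 in wound vehicle against uninjured vehicle (13% of all genes), 3 in wound trimebutine (9.43%) and 1 in wound alprostadil (2.75%) against wound vehicle, 0 between the drugs (4.42%), and 3 in all wound groups against uninjured vehicle (10.3%). Without wound alprostadil replicate 1 all 5 of these counts changed. They were 4 for wound vehicle against uninjured vehicle (14.5% of all genes) and 4 for trimebutine against wound vehicle (10.2%). For alprostadil against wound vehicle the count was 0 (1.44%), between the drugs 2 (2.55%) and for all wound groups 6 (11.8%). The list's medians lay between -0.03 and 0.05, those of all genes between -0.01 and 0.03. The tested proteases (9), sugar transferases (4) and ubiquitin ligases with Numb genes (13) each had 0 or 1 gene at that level in wound vehicle against uninjured vehicle, the single one being Rfng, a radical fringe sugar transferase (-0.36 ± 0.15, adjusted p = 0.355).

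Dlk1, a non-canonical ligand and an imprinted gene, had the widest difference in the list. It read 8.63, 10.82 and 10.87 in wound trimebutine, 8.55, 10.02 and 9.94 in wound alprostadil, 9.59, 9.23 and 10.30 in wound vehicle, and 7.67, 8.13 and 8.12 in uninjured vehicle. All 9 wound arrays lay above the uninjured ones, by 1.80 ± 0.48 on average (adjusted p = 0.201), and by 2.05 without wound trimebutine replicate 1 (adjusted p = 0.0451). Maml3, a Mastermind coactivator, read 7.34 to 8.07 in wound trimebutine, 7.64 to 7.81 in wound alprostadil, 7.71 to 7.94 in wound vehicle, and 7.23 to 7.37 in uninjured vehicle. Only wound trimebutine replicate 1 fell within the uninjured range, and the wound groups together were higher by 0.48 ± 0.14 (adjusted p = 0.226), or by 0.56 without that array (adjusted p = 0.0236).

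Rbpj, the DNA-binding partner of all receptors, read 11.41, 10.86 and 10.47 in wound trimebutine, 11.69, 11.90 and 10.96 in wound alprostadil, 11.99, 11.79 and 11.00 in wound vehicle, and 10.84, 10.89 and 11.69 in uninjured vehicle. Its high arrays in the wound vehicle and alprostadil groups, replicates 1 and 2, were the ones low in fibroblast markers, while uninjured vehicle replicate 3 was also high without a low fibroblast mean; the part of those markers was not tested. Trimebutine minus wound vehicle was -0.68 ± 0.36 (adjusted p = 0.545). In the same comparison Kat2b, a histone acetyltransferase, was higher without overlap (8.83, 8.69 and 8.62 in wound trimebutine, 8.18, 8.38 and 8.25 in wound vehicle), by 0.44 ± 0.10 (adjusted p = 0.528). Neurl1b, a ubiquitin ligase of the Neuralized family, gave 0.55 ± 0.19 and Fbxw7, which marks the Notch intracellular part for breakdown, 0.31 ± 0.13, at the same adjusted p. Kat2b also had the smallest p of the list with alprostadil against wound vehicle (0.30 ± 0.10, adjusted p = 0.998), a comparison that shares the wound vehicle arrays.

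The remaining genes that ranked among the 3 smallest p in a direction did not pass either. Against uninjured vehicle, wound vehicle gave 0.52 ± 0.17 for Maml3 and 0.17 ± 0.08 for the acetyltransferase Ep300, and -0.26 ± 0.13 for Adam17, a protease that can cut Notch, and -0.19 ± 0.11 for Snw1, a cofactor of the RBPJ complex (adjusted p of 0.259 to 0.505). All wound groups gave 0.17 ± 0.08 for Hes5 and -0.26 ± 0.12 for Rfng, -0.13 ± 0.07 for the corepressor Spen and -0.19 ± 0.10 for Adam17 (0.476 to 0.591). Trimebutine against wound vehicle gave -0.18 ± 0.08 for Hes6 and -0.26 ± 0.16 for Psen2, a presenilin of gamma-secretase (0.539 and 0.584). Alprostadil against wound vehicle gave 0.24 ± 0.13 for Fbxw7 and 0.21 ± 0.12 for the Mastermind gene Maml1, and -0.13 ± 0.08 for Dtx1, -0.15 ± 0.11 for the ligand Jag2 and -0.14 ± 0.11 for Hes7, at the same adjusted p as Kat2b. Trimebutine against alprostadil gave 0.22 ± 0.10 for Maml2, 0.36 ± 0.17 for the receptor Notch4 and 0.40 ± 0.19 for Neurl1b, and -0.78 ± 0.37 for the gamma-secretase subunit Aph1c, -0.34 ± 0.16 for Psen2 and -0.15 ± 0.08 for Spen (0.752 each). Aph1c read 9.75 on wound alprostadil replicate 1, the array with macrophage markers, against 8.26 and 7.88 on the other 2 of its group, and without that array its difference was -0.22. Without the same array the drugs differed by 0.16 for Maml2, 0.28 for Notch4, 0.55 for Neurl1b, -0.24 for Psen2 and -0.0787 for Spen. Alprostadil against wound vehicle was then 0.24 for Kat2b, 0.0841 for Fbxw7, 0.18 for Maml1, -0.0773 for Dtx1, -0.0495 for Jag2 and -0.0628 for Hes7, so the Fbxw7 and Jag2 values rest largely on that array. All wound groups against uninjured vehicle were then 1.96 for Dlk1, 0.48 for Maml3, 0.16 for Hes5, -0.30 for Rfng, -0.16 for Spen and -0.22 for Adam17.

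**Figure D5:**
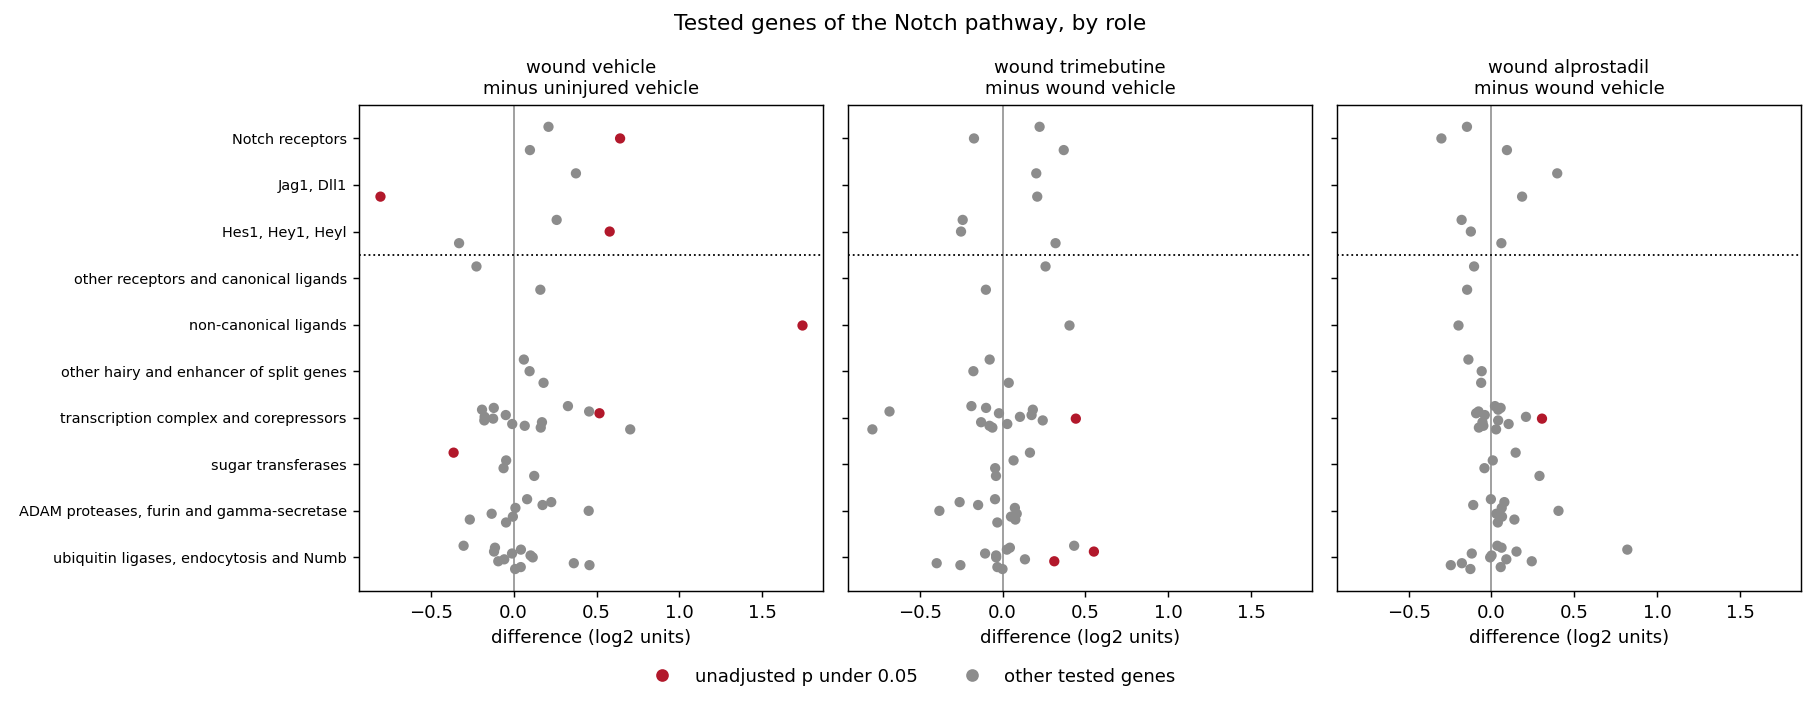
Differences (log2 units, horizontal axis) of the tested members (above the dotted line) and of the 46 other tested Notch pathway genes (below it), by role, in 3 comparisons; red points have an unadjusted p under 0.05, and height within a row only spreads the points. The point at 1.74 in the first panel is Dlk1, and no point passed the adjusted threshold.

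By Pearson correlation over the 12 arrays, given as a description of the closest of the tested genes, the profile most like Notch2 was that of D2hgdh (0.93), followed by Sorcs2 (0.92). For Dll1 these were 4930486L24Rik (0.97) and Lmcd1 (0.96), for Hes1 Atraid (0.95) and B3galt2 (0.95), and for Hey1 Pex11a (0.95) and Pgls (0.94). Notch1 was most like Mgst1 (0.96) and Egflam (0.96), Notch3 like Mir654 (0.97) and Cldn1 (0.96), Jag1 like Ube2d1 (0.89) and Gm21136 (0.88), and Heyl like Olfr93 (0.83) and Mir99b (0.78). The arrays shared the normalization, and groups of cultures that stand apart raise such values.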

How the data were processed

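RNA of 12 SKP cultures, 400 ng of each, was hybridised to Affymetrix Mouse Gene 2.0 ST arrays, per the labels. The authors deposited log2 expression values per probe set, for which the submitters' processing notes name RMA and oligo, without versions. RMA sets the arrays to a common distribution, so values are relative within an array. Of 41345 probe sets, 23521 carry 1 symbol in the platform annotation, 1814 several and 16010 none; only the first were used, and the brightest probe set was kept per symbol. Array medians were 6.57 to 6.74. Precision is limited by 3 arrays a group.

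All 12 arrays entered 1 linear model with 4 groups in limma 3.58.1 (R 4.3.3; lmFit and eBayes, 8 residual degrees of freedom), with Benjamini-Hochberg adjustment over the 13153 genes tested and a threshold of 0.05. Named genes were all 10 members, the 3 smallest p in each direction from the pathway list in each comparison, and the 2 closest profiles per tested member. Residuals of same-numbered arrays correlated above 0.1 in 3 of 3 pairs between alprostadil and trimebutine (0.22 to 0.57) and between alprostadil and wound vehicle (0.19 to 0.62), in 2 of 3 between trimebutine and wound vehicle, and in 0 of 3 between wound vehicle and uninjured vehicle. Arrays with different numbers correlated as highly, up to 0.58 between uninjured vehicle replicate 3 and wound alprostadil replicate 2, so the number alone does not mark out the correlated arrays. The labels state no shared litter or day. The members and lists were chosen with earlier results of these data known. On simulated arrays for wound vehicle against uninjured vehicle (13153 genes, 10 draws with 200 altered genes), the fit recovered 76.6% at 1 log2 unit and 93.9% at 2, and 4.71% of calls were false. Sizes under 1 log2 unit were not simulated. The widest member difference in that comparison was -0.80 (Dll1), so these shares do not give the recovery of the members. Alternatives were a replicate block, 2 other filters, the mean of probe sets, median centring, cyclic loess, array weights, a trended robust variance, a fit to only the groups compared and leaving out each array. Leaving out the 3 arrays of lowest median was added after seeing the data. These were replicate 1 of wound alprostadil (6.57), of uninjured vehicle (6.61) and of wound trimebutine (6.62), so wound vehicle lost no array.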

Additional observations from a re-analysis of the deposited data

How the results depend on the processing

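No member passed under the replicate block, either filter, the mean of probe sets, median centring, cyclic loess, the other variance model, the groups compared alone or without the 3 arrays of lowest median. Over single omissions 0 to 1 member passed in wound vehicle and in all wound groups against uninjured vehicle (Dll1, without uninjured vehicle replicate 3), and 0 in the other comparisons; of the pathway list 0 to 2 passed for all wound groups (Dlk1 and Maml3, without wound trimebutine replicate 1) and 0 elsewhere. Array weights were estimated from these same arrays, at 0.299 to 5.99. Of the 13153 genes tested they called 4997 in wound vehicle against uninjured vehicle, 4034 in trimebutine against wound vehicle and 4175 in all wound groups. The F test with these weights called 5302. In those 3 comparisons, in that order, the calls held 4, 4 and 5 of the 8 members tested. They held 15, 10 and 15 of the 46 pathway genes tested. With so many of all genes called, these counts show nothing particular to the pathway. The cause of the many calls was not tested.

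Of all genes, 6 were called in wound vehicle against uninjured vehicle, 2 with the replicate block, 1 with median centring, 0 with the stricter filter, the groups compared alone or the 3 arrays left out, and 0 to 30 over single omissions. For all wound groups the count was 32, 0 without the 3 arrays, and 0 to 76 over single omissions. The F test called 2, then 0 with the block, the stricter filter or the 3 arrays left out, 1 with median centring or cyclic loess, and 0 to 6 over single omissions. Single omissions gave 0 to 11 for trimebutine and 0 to 1 for alprostadil against wound vehicle and 0 to 1 between the drugs, in place of 0. Of 18 same-numbered pairs 11 had residual correlations over 0.1, from -0.64 to 0.62, all 3 in each comparison with alprostadil between wound groups but 0 of 3 between wound vehicle and uninjured vehicle. Pairs with different numbers ran from -0.57 to 0.58. The replicate block changed the call of 0 members and 0 pathway genes.

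Signs of small differences turned. With array weights Notch1 was -0.20 in wound vehicle against uninjured vehicle, and Notch3 and Hey1 were 0.035 and 0.12 with alprostadil; without the 3 arrays Jag1 was 0.0064 between the drugs. Single omissions gave -0.20 to 0.27 for Notch1 in wound vehicle, and with alprostadil -0.0744 to 0.39 for Notch1, -0.29 to 0.0467 for Notch3, -0.039 to 0.15 for Hes1 and -0.32 to 0.071 for Hey1. Between the drugs they gave -0.39 to 0.0148 for Jag1, -0.0774 to 0.125 for Dll1, -0.26 to 0.0745 for Hey1 and -0.18 to 0.0557 for Heyl.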
